A study of Mus musculus with 12 samples.

Results

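The Nduf genes encode the nuclear subunits of respiratory complex I and many of its assembly factors. They were taken as every probe set whose mouse symbol starts with Nduf, which gave 44 of the 25206 probe sets on the array. The cells were female mouse pluripotent cells of C57BL/6 background, grown in 2iLIF medium on gelatin without feeders and sorted on tetramethylrhodamine methyl ester (TMRM), a cationic dye that gathers in mitochondria according to their membrane potential. The 4 groups were embryonic stem cells (ESC) of high potential, ESC of low potential, induced pluripotent stem cells (iPSC) of high potential and iPSC of low potential, with 3 arrays each, numbered 2, 3 and 4. In the labels the fractions of a cell type differ by the sort alone, and the number of clones and the somatic source of the iPSC are not given. Nothing states that arrays of a group came from separate cultures, and each p-value is set against a spread between arrays that may be technical only.

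Complex I is the entry point of electrons from NADH into the respiratory chain. Its peripheral arm oxidises NADH (N module) and passes electrons along iron-sulphur clusters to ubiquinone (Q module), and its membrane arm pumps protons, which builds the membrane potential that TMRM reads. Core subunits of the membrane arm are encoded by mitochondrial DNA and the remaining subunits by the nucleus, and assembly factors join the modules step by step without staying in the finished enzyme. Mouse ESC in the naive state are known to draw on both glycolysis and respiration.

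All values are log2 expression as deposited, and differences are log2 differences. Array medians lay between 3.51 and 3.61, lower quartiles between 2.08 and 2.20, and no detection calls were given. Between arrays, correlations over all probe sets were 0.991 to 0.994 within groups and 0.986 to 0.994 between groups. The 10 pluripotency markers examined, among them Pou5f1 and Nanog, lay above the array median in every group, against 3 of 8 fibroblast, 2 of 5 endoderm, 0 of 4 mesoderm, 5 of 5 neural and 2 of 3 blood markers measured. G2/M genes differed between the fractions, with 12 of 14 measured rising with high potential in the average, beside 1.6% of all probe sets, and a median difference of 0.62. Of the 3 blood markers measured 1 rose too, Cd68, a lysosomal protein of macrophages, by 0.82 ± 0.09 (SE; adjusted p = 0.000828, limma) over both cell types, 0.96 in ESC and 0.67 in iPSC. The other blood markers measured, Ptprc (-0.05) and Spi1 (-0.18), lay below 0 and did not pass (adjusted p = 0.786 and 0.488, limma). The mean level of the G2/M list ran from 8.34 to 8.53 in ESC high and 7.84 to 7.92 in ESC low, and from 8.48 to 8.56 in iPSC high and 7.94 to 7.99 in iPSC low. The part of the cell cycle, or of other cells, in any Nduf value was not tested.

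High-potential and low-potential cells did not differ in any Nduf gene at the threshold used, an adjusted p under 0.05 in limma's moderated test over all probe sets. Over both cell types 0 of 44 members rose and 0 fell, where 1.6% of all probe sets rose and 0.905% fell (2.5% in either direction). Within ESC 0 members rose and 0 fell, where 0.305% of all probe sets rose and 0.0516% fell (0.357% together). Within iPSC the members' counts were again 0 and 0, where 0.349% of all probe sets rose and 0.198% fell (0.547% together). At an unadjusted p under 0.05, 4 of 44 members passed in limma's average over the cell types, beside 15.6% of all probe sets, and these were 1 higher (7.97% of all) and 3 lower (7.65%). In ESC 2 of 44 passed, beside 8.29%, with Ndufb10 higher (4.52% of all) and Ndufa4l2 lower (3.76%). In iPSC 4 of 44 passed, beside 12.7%, with 0 higher (7.04% of all) and 4 lower (5.64%), namely Ndufa12, Ndufaf2, Ndufaf5 and Ndufaf6. In such bulk samples a change in RNA per cell and a change in the share of cells of a type cannot be told apart.

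The intervals, from a fit that does not pair arrays by number, show how large a difference these arrays could have missed. For 38 of 44 members the 95% interval of the averaged difference lay inside 0.5 on either side of 0, a 1.41-fold change, as it did for 87.8% of all probe sets. Within single cell types the arrays were fewer and the count was 31 of 44 both in ESC, beside 73.1% of all probe sets, and in iPSC, beside 68.4%. In the average, the 6 members with a wider reach were Ndufa7, Ndufa11, Ndufb3, Ndufb8, Ndufab1 and Ndufa4l2. The estimates themselves ran from -0.34 for Ndufa4l2 to 0.23 for Ndufb8, and 27 of 44 were above 0. Their median was 0.05, beside 0.0029 over all probe sets, and centring each array on its median brought the members' median to 0.0148. Among probe sets with a mean of at least 4, the 41 members had a median of 0.06 and all such probe sets one of -0.03. The remaining 3 members, Ndufb3, Ndufa11 and Ndufaf2, were dimmer.

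**Figure D1:**
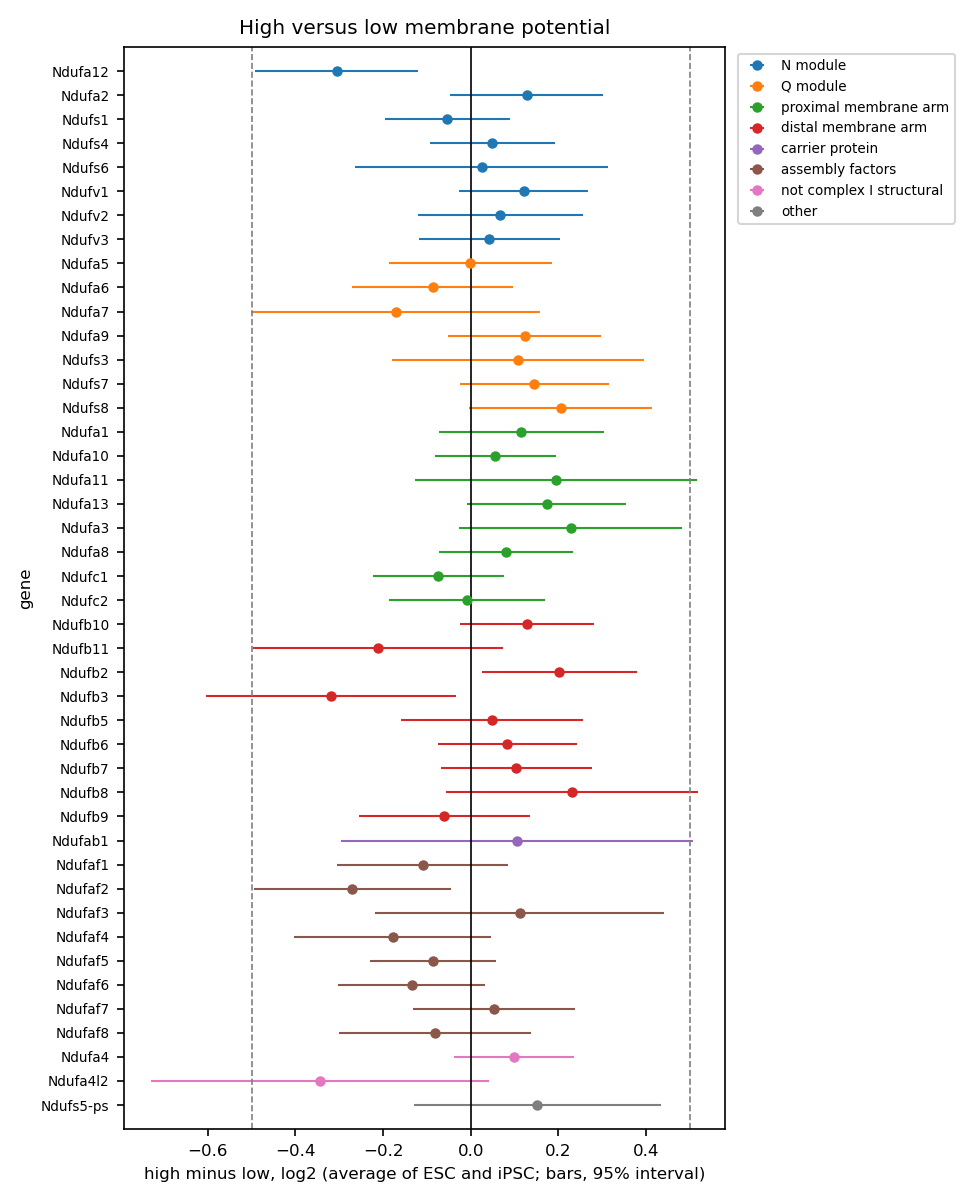
Difference of high minus low membrane potential (log2, average of ESC and iPSC) on the horizontal axis for each of the 44 Nduf genes, colored by role; points are limma estimates from 12 arrays, bars 95% intervals and dashed lines mark 0.5 on either side of 0. Estimates lie between -0.34 and 0.23, and 6 intervals cross a dashed line.

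In the N module, which binds NADH, 6 of 8 members were above 0, with a median of 0.05 and 0 called. Ndufv1, the flavoprotein that oxidises NADH, averaged 7.62 ± 0.05 in ESC high and 7.54 ± 0.11 in ESC low, and 7.65 ± 0.11 in iPSC high and 7.49 ± 0.09 in iPSC low (SD, n = 3 each). Its averaged difference was 0.12 with an interval from -0.03 to 0.27. Ndufs1, the large iron-sulphur subunit of the module, averaged 7.52 ± 0.06 in ESC high and 7.54 ± 0.09 in ESC low, and 7.41 ± 0.10 in iPSC high and 7.50 ± 0.08 in iPSC low. Its difference was -0.05, with an interval from -0.20 to 0.09. The fractions overlapped in both cell types for Ndufs1, and the others of the module, Ndufv2, Ndufv3, Ndufs4, Ndufs6 and Ndufa2, had differences between 0.02 and 0.13.

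Ndufa12, an accessory subunit of the N module, had the lowest p of the 44 members. It stood at 6.99, 7.08 and 7.36 in ESC high, against 7.53, 7.24 and 7.41 in ESC low. The iPSC high arrays read 7.09, 7.24 and 7.15, against 7.49, 7.38 and 7.68 in iPSC low. All iPSC high arrays lay below all iPSC low arrays, while the ESC groups overlapped. The averaged difference was -0.31 ± 0.09 (SE), negative in 6 of 6 numbered pairs, with an adjusted p = 0.0913 in limma, outside the threshold. Over the alternatives examined that p ranged from 0.0423 to 0.254, and it passed without ESC high replicate 4 (-0.36) and, at 0.0499, with a trended and robust variance model. The reference gene table lists a pseudogene copy of Ndufa12, and the array signal of the 2 may be shared.

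In the Q module 4 of 7 members were above 0, with a median of 0.11 and 0 called. Ndufs8, which carries iron-sulphur clusters on the way to quinone, stood at 7.26, 7.31 and 7.34 in ESC high, against 6.83, 7.02 and 7.27 in ESC low. Its iPSC high values were 7.12, 7.14 and 7.36, against 6.97, 6.89 and 7.33 in iPSC low. It was higher in 6 of 6 numbered pairs, but the groups overlapped in both cell types and the difference of 0.20 ± 0.10 (SE) had an adjusted p = 0.33 in limma. Ndufs7, whose cluster hands electrons to quinone, averaged 9.14 ± 0.05 in ESC high and 8.99 ± 0.13 in ESC low, and 9.27 ± 0.13 in iPSC high and 9.14 ± 0.16 in iPSC low (SD, n = 3 each). Its interval ran from -0.03 to 0.31. The remaining members lay between -0.17 for Ndufa7 and 0.12 for Ndufa9, an accessory subunit at the junction of the arms.

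The membrane arm had 0 members called. In its proximal part 6 of 8 estimates were above 0 (median 0.10), and in its distal part 6 of 9 (median 0.08), beside 50.9% of all probe sets. Ndufa13, also known as GRIM-19, stood at 6.76, 6.82 and 6.71 in ESC high, against 6.41, 6.43 and 6.71 in ESC low. Among iPSC high arrays it had 6.70, 6.75 and 6.88, against 6.72, 6.46 and 6.85 in iPSC low. The ESC groups touched without overlapping, and the iPSC groups overlapped. Its difference was 0.17 ± 0.08 (SE; adjusted p = 0.345, limma).

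Ndufa3, an accessory subunit of the proximal arm, stood at 8.56, 8.56 and 8.64 in ESC high, against 7.98, 8.43 and 8.66 in ESC low. Its level in iPSC high was 8.51, 8.56 and 8.72, against 8.38, 8.11 and 8.64 in iPSC low. The low arrays were spread more widely than the high ones and reached into their range, and the difference was 0.23 ± 0.12 (SE; adjusted p = 0.38, limma), or 0.13 without ESC low replicate 2. Ndufb2, of the distal arm, stood at 6.98, 6.98 and 6.79 in ESC high, against 6.76, 6.57 and 6.85 in ESC low. The values in iPSC high were 6.87, 6.74 and 6.95, against 6.60, 6.49 and 6.82 in iPSC low. Here too the groups overlapped. With 0.20 ± 0.08 (SE) it was the member above 0 with the lowest p (adjusted p = 0.249, limma), and 5 of 6 pairs were higher.

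Ndufb3, another distal subunit, was one of the dimmest members. It stood at 0.95, 1.09 and 1.24 in ESC high, against 1.15, 1.45 and 1.59 in ESC low, and at 1.18, 1.02 and 0.995 in iPSC high, against 1.36, 0.98 and 1.85 in iPSC low. All 12 values were below the lower quartile of every array, so its difference of -0.32 ± 0.13 (SE; adjusted p = 0.26, limma) describes a signal whose distance from background is unknown. Without iPSC low replicate 4 it was -0.20.

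**Figure D2:**
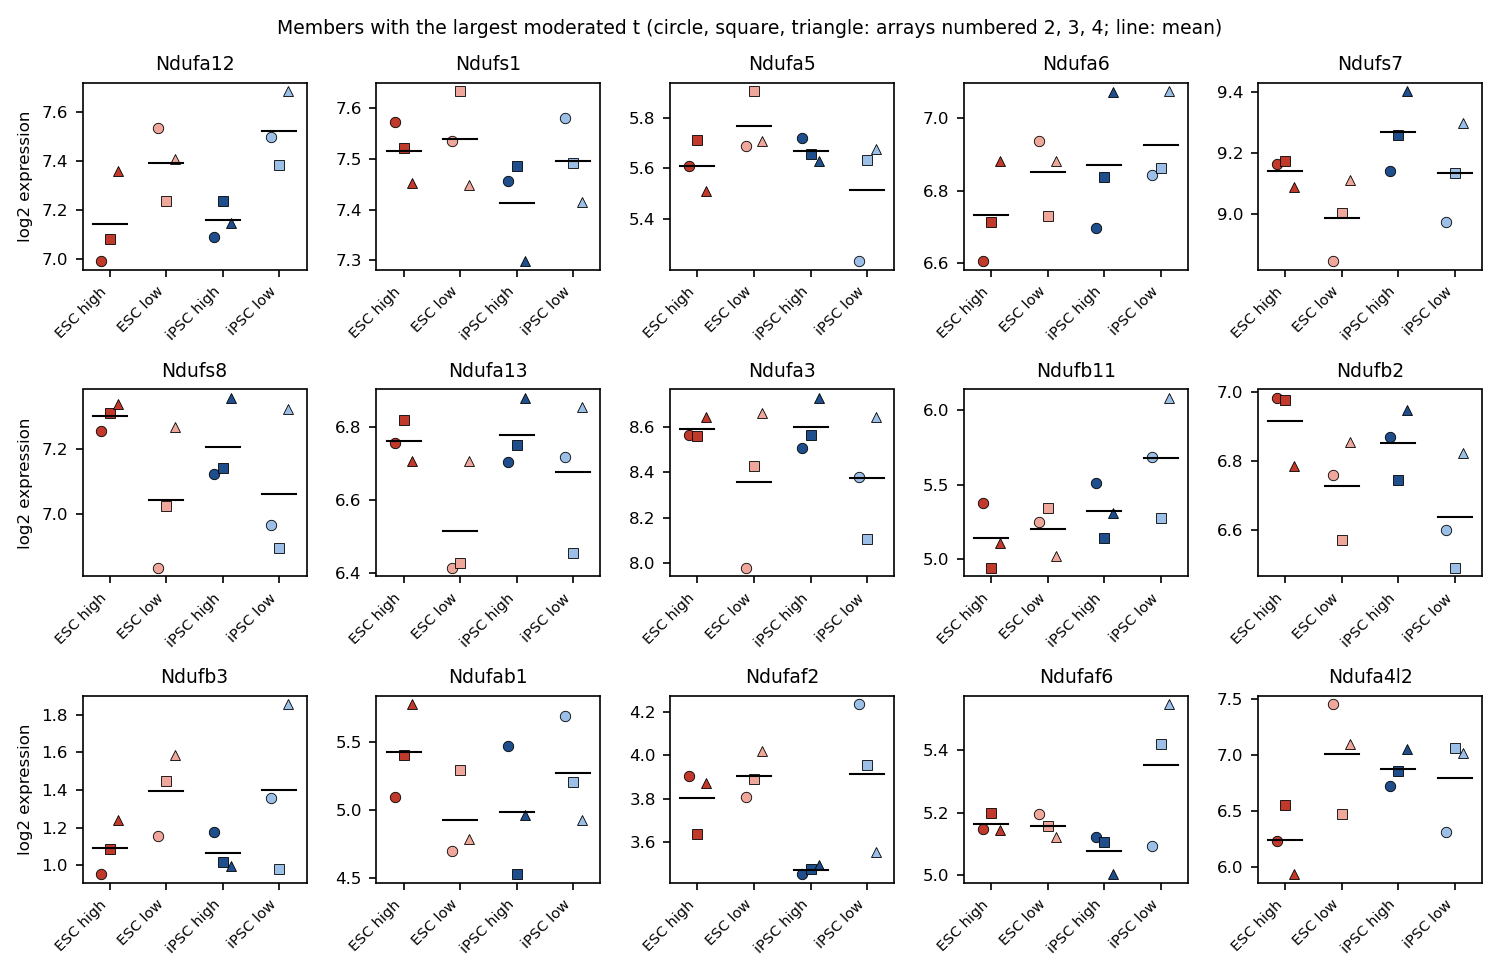
Log2 expression (vertical axis, own scale per panel) of 15 Nduf genes on each of the 12 arrays, by group; circles, squares and triangles are arrays numbered 2, 3 and 4 and lines group means. Ndufa12 is lower in iPSC high than in iPSC low on all arrays, and most other groups overlap.

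Among the assembly factors the averaged differences lay mostly below 0, in 6 of 8 members, with a median of -0.10 and 0 called. Within iPSC the median was -0.17, within ESC -0.03, and whether the assembly factors and the subunits differ from each other was not tested. Of all probe sets 50.9% lay above 0 in the average, as did 11 of 16 measured assembly genes under other names, described below. Ndufaf2, a paralog of Ndufa12 that is exchanged for it late in assembly, stood at 3.91, 3.64 and 3.87 in ESC high, against 3.81, 3.89 and 4.02 in ESC low. In iPSC high it stood at 3.45, 3.48 and 3.49, against 4.23, 3.95 and 3.55 in iPSC low. The iPSC groups did not overlap. Its averaged difference was -0.27 ± 0.10 (SE; adjusted p = 0.222, limma), and in iPSC alone -0.44 ± 0.15 (adjusted p = 0.212, limma).

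Ndufaf5, which hydroxylates an arginine of Ndufs7, also had all iPSC high arrays below all iPSC low arrays, at a difference of -0.21 ± 0.09 (SE) and an adjusted p = 0.388 in limma. The 3 members lower without overlap in iPSC, Ndufa12, Ndufaf2 and Ndufaf5, were 6.82% of the members, where 9.57% of all probe sets did the same, and 0 were higher without overlap, where 9.76% of all probe sets were. In ESC 1 member, Ndufa13, was higher without overlap, beside 6.71% of all probe sets, and 0 were lower, beside 6.36%. With both cell types together, the 6 high and 6 low arrays separated for 0 members, beside 2.07% of all probe sets. Ndufaf1, a scaffold of early membrane arm assembly, was at -0.11 and Ndufaf4, of the early Q module, at -0.18. Ndufaf3, the partner of Ndufaf4, was at 0.11, Ndufaf7, a protein arginine methyltransferase, at 0.05, and Ndufaf8, the partner of Ndufaf5, at -0.08. None of these passed.

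The numbered pairs gave the same picture. Higher in 6 of 6 pairs were 2 members, Ndufa4 and Ndufs8, beside 5.65% of all probe sets. Lower in 6 of 6 were 2 members, Ndufa12 and Ndufc1, beside 7.01% of all probe sets. Pairs that all went one way in ESC and all the other way in iPSC occurred in 0 members, beside 2.64% of all probe sets. Ndufc1, of the proximal arm, differed by -0.07 with an interval from -0.22 to 0.07. Ndufa6, a Q module subunit that binds the acyl carrier protein, was lower in 5 pairs and equal in 1, by -0.09 with an interval from -0.27 to 0.10.

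The arrays numbered 4 read higher for the members than those numbered 2 and 3. Taken as each member's deviation from its own mean over 12 arrays, the median over the 44 members was 0.06 on ESC high array 4 and 0.08 on ESC low array 4, and 0.11 on iPSC high array 4 and 0.09 on iPSC low array 4. On the arrays numbered 2 and 3 it was between -0.03 and 0.03 in the high fractions and between -0.09 and -0.06 in the low fractions. Array 4 was thus the highest of its group in this median in all 4 groups. Array 4 held the highest value of its group for 23 of 44 members in ESC high and 27 in ESC low, and for 28 in iPSC high and 30 in iPSC low. Over all probe sets these shares were 32.6% in ESC high and 30.9% in ESC low, and 35% in iPSC high and 35.5% in iPSC low. For 9 members, among them Ndufa1, Ndufa3, Ndufs8 and Ndufv2, array 4 was the highest in all 4 groups, beside 2.76% of all probe sets.

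Compared within its own number, the median member difference was 0.09 and 0.07 in ESC pairs 2 and 3 and -0.0066 in pair 4, and 0.04, 0.02 and 0.0002 in iPSC pairs 2, 3 and 4. The low arrays numbered 4 also had the lowest lower quartiles of all arrays, 2.11 in ESC and 2.08 in iPSC, and the highest upper quartiles, 6.02 and 6.06. This was not so for iPSC high array 4, whose lower quartile of 2.20 was the highest, and the part of these distributions in the members' values was not tested. Without the 4 arrays numbered 4, an alternative chosen after seeing the data, 0 members were called and the median was 0.07 over both cell types.

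**Figure D3:**
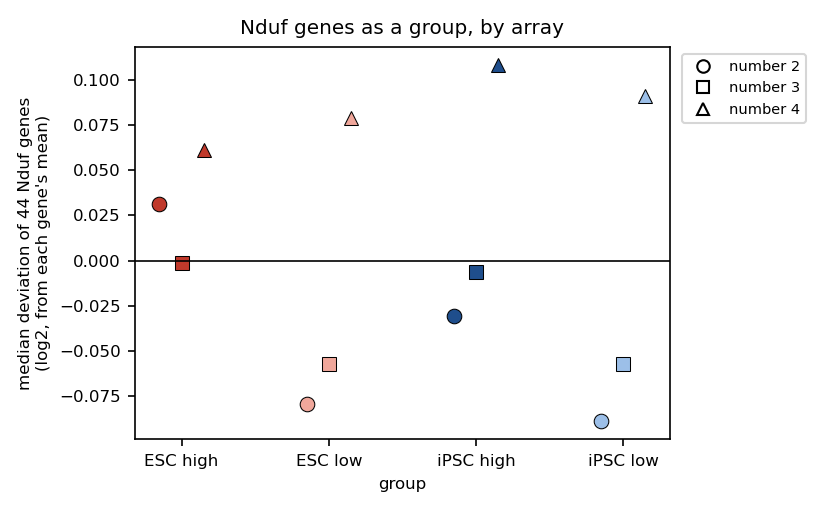
Median over the 44 Nduf genes of the deviation from each gene's mean over 12 arrays (log2, vertical axis), one symbol per array, by group. Array 4 (triangle) is the highest in each of the 4 groups, between 0.06 and 0.11.

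**Figure D4:**
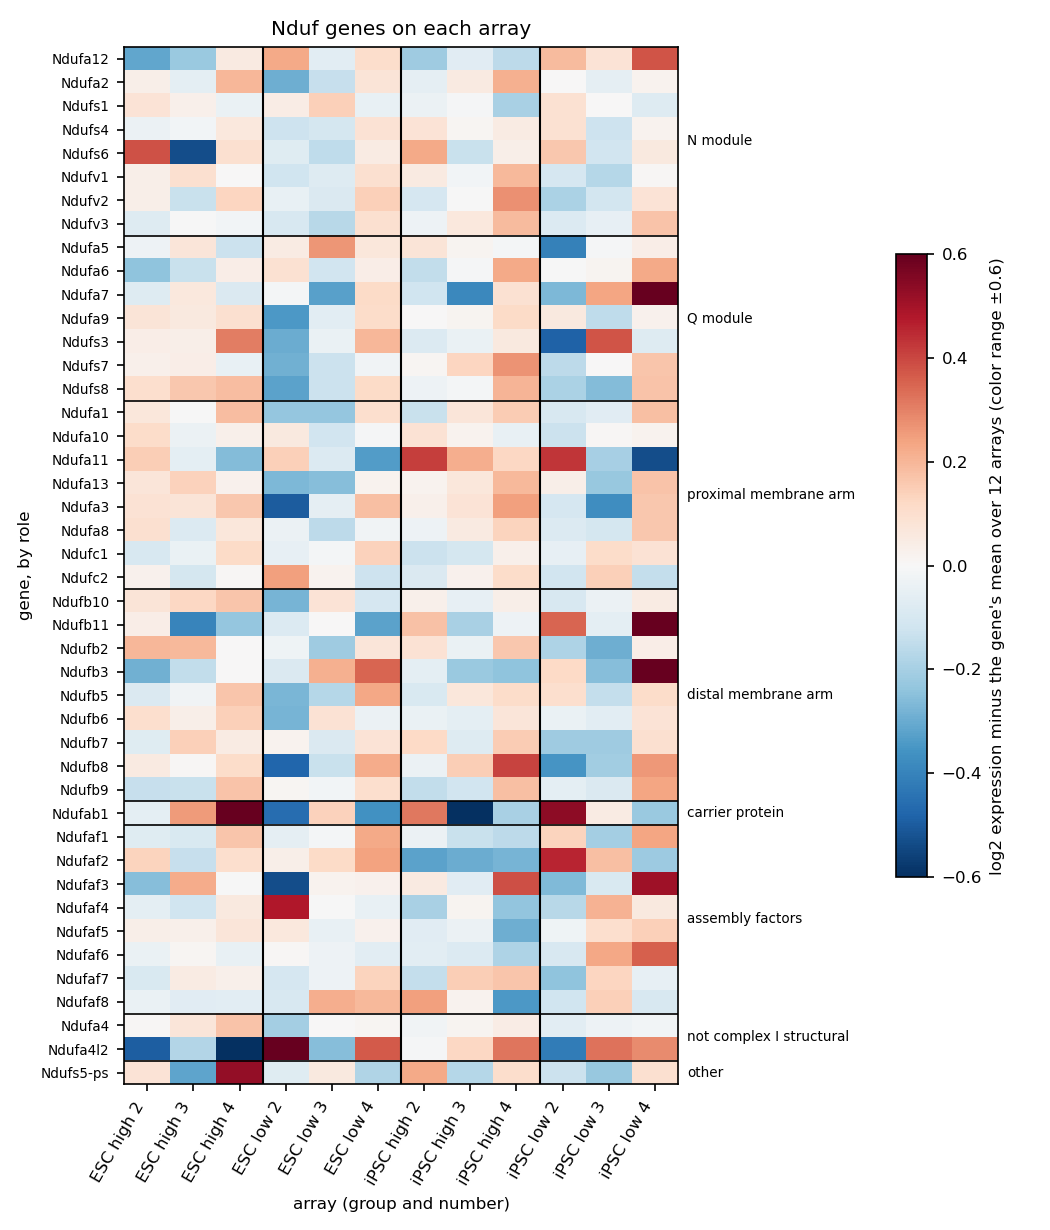
Deviation of each Nduf gene from its own mean over 12 arrays (color, log2, limited to 0.6 on either side of 0), genes in rows by role and arrays in columns by group and number. No group of columns is uniformly high or low, the columns numbered 4 hold more red than their neighbors, and Ndufab1 and Ndufa4l2 are among the most variable rows.

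The high-low difference was also set side by side in the 2 cell types, whose arrays are separate. The sign agreed for 35 of 44 members, or 79.5%, beside 61.7% of all probe sets, with 24 members above 0 in both and 11 below 0 in both. Across the 44 members the Pearson correlation was 0.27 and the Spearman correlation 0.43, a description over genes that share the same arrays. The difference of the differences (iPSC minus ESC) passed for 0 members, as for 0% of all probe sets, and at an unadjusted p under 0.05 in limma for 1, Ndufa4l2, beside 4.36% of all probe sets (2.84% above 0 and 1.53% below). Its interval lay inside 0.5 on either side of 0 for 22 of 44 members, beside 42.5% of all probe sets, so these arrays leave room for sizeable differences between the cell types in the others.

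Ndufa4l2 encodes a relative of Ndufa4 that is induced through hypoxia-inducible factor and is known to lower complex I activity. It stood at 6.24, 6.55 and 5.94 in ESC high, against 7.45, 6.48 and 7.10 in ESC low. On iPSC high arrays it had 6.72, 6.85 and 7.05, against 6.31, 7.06 and 7.01 in iPSC low. The ESC groups overlapped by 1 array on each side, and the iPSC groups overlapped fully. The ESC difference was -0.77 ± 0.25 (SE; adjusted p = 0.363, limma) and the iPSC difference 0.08 ± 0.25 (adjusted p = 0.934, limma). Their difference was 0.85 ± 0.36 (adjusted p = 1, limma), with an interval from 0.07 to 1.62 before adjustment. Ndufa4 itself, now counted as a subunit of cytochrome c oxidase, averaged 9.36 ± 0.08 in ESC high and 9.21 ± 0.12 in ESC low, and 9.29 ± 0.03 in iPSC high and 9.24 ± 0.03 in iPSC low (SD, n = 3 each).

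Ndufab1, the mitochondrial acyl carrier protein, which serves in complex I and in fatty acid synthesis, was the most variable member. Its residual SD within groups was 0.384, where the median was 0.147 for the members and 0.16 for all probe sets, and Ndufa4 had the lowest at 0.077. It stood at 5.09, 5.41 and 5.77 in ESC high, against 4.69, 5.29 and 4.79 in ESC low, and at 5.47, 4.53 and 4.96 in iPSC high, against 5.69, 5.20 and 4.93 in iPSC low. The groups overlapped in both cell types. The difference was 0.50 ± 0.26 (SE) in ESC and -0.29 ± 0.26 in iPSC, and the difference of these, -0.79 ± 0.37, did not pass (adjusted p = 1, limma).

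Ndufa5 and Ndufaf6 had the next largest t in this comparison, above and below 0. Ndufa5, of the Q module, stood at 5.61, 5.71 and 5.51 in ESC high, against 5.69, 5.90 and 5.71 in ESC low. Its iPSC high arrays had 5.72, 5.65 and 5.63, against 5.23, 5.63 and 5.68 in iPSC low. The assembly factor Ndufaf6 stood at 5.15, 5.20 and 5.14 in ESC high, against 5.19, 5.16 and 5.12 in ESC low, and at 5.12, 5.11 and 5.00 in iPSC high, against 5.09, 5.42 and 5.55 in iPSC low. All ESC arrays of Ndufaf6 fell within a span narrower than that of iPSC low alone. The interaction was 0.31 ± 0.17 for Ndufa5 and -0.28 ± 0.15 for Ndufaf6 (SE; adjusted p = 1 each, limma). It was 0.17 for Ndufa5 without iPSC low replicate 2 and -0.18 for Ndufaf6 without iPSC low replicate 4.

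**Figure D5:**
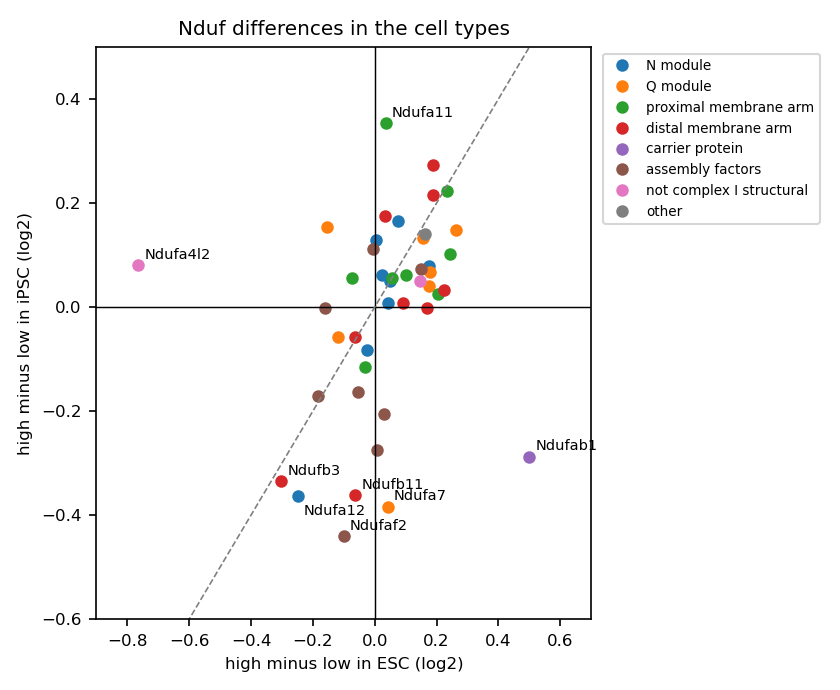
High minus low difference (log2) in ESC on the horizontal and in iPSC on the vertical axis for the 44 Nduf genes, colored by role; the dashed line marks equal differences. Ndufa4l2 (-0.77 in ESC, 0.08 in iPSC) and Ndufab1 (0.50 in ESC, -0.29 in iPSC) lie farthest from the line.

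Between iPSC and ESC, averaged over the fractions, the Nduf genes again gave no call. In limma 0 of 44 members rose and 0 fell, where 0.916% of all probe sets rose and 1.96% fell (2.87% together). At an unadjusted p under 0.05, 1 member was higher, beside 7.37% of all probe sets, and 0 were lower, beside 7.34% (14.7% together). The median difference was -0.0041, beside 0.01 over all probe sets, with 22 members above and 22 below 0. The median size of a difference regardless of sign was 0.0524, beside 0.0844 over all probe sets, and the interval lay inside 0.5 on either side of 0 for 41 of 44 members, beside 88% of all probe sets. The exceptions were Ndufb11, Ndufaf3 and Ndufa4l2.

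Ndufb11, an X-linked distal subunit, had the lowest p of this comparison. It stood at 5.51, 5.14 and 5.31 in iPSC high and at 5.69, 5.28 and 6.08 in iPSC low, against 5.37, 4.94 and 5.11 in ESC high and 5.25, 5.34 and 5.02 in ESC low. Of the iPSC arrays 3 lay above every ESC array and 3 within the ESC range. The difference was 0.33 ± 0.13 (SE; adjusted p = 0.254, limma), and 0.23 without iPSC low replicate 4, the highest array. The other X-linked member, Ndufa1, differed by 0.04 ± 0.09.

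Ndufs7, with the next largest t above 0, stood at 9.14, 9.26 and 9.40 in iPSC high and 8.97, 9.13 and 9.30 in iPSC low, against 9.16, 9.17 and 9.09 in ESC high and 8.84, 9.002 and 9.11 in ESC low. Ndufa6 stood at 6.70, 6.84 and 7.07 in iPSC high and 6.84, 6.86 and 7.07 in iPSC low, against 6.60, 6.71 and 6.88 in ESC high and 6.94, 6.73 and 6.88 in ESC low. The cell types overlapped in both genes, at 0.14 ± 0.08 and 0.11 ± 0.08 (SE). For Ndufa6 the value was 0.07 without iPSC low replicate 4, and leaving out iPSC high replicate 4 gave 0.06. Below 0 the largest t were those of Ndufaf2 (-0.16 ± 0.10), Ndufa5 (-0.10 ± 0.09) and Ndufs1 (-0.07 ± 0.07). Single arrays moved each of these, to -0.07 for Ndufaf2 without iPSC low replicate 4, to -0.03 for Ndufa5 without iPSC low replicate 2 and -0.06 without ESC low replicate 3, and to -0.04 for Ndufs1 without iPSC high replicate 4. Ndufs1 stood at 7.46, 7.49 and 7.30 in iPSC high and 7.58, 7.49 and 7.41 in iPSC low, against 7.57, 7.52 and 7.45 in ESC high and 7.54, 7.63 and 7.45 in ESC low. All adjusted p in limma lay at 0.464 or above for these 5 genes.

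Genes that act on complex I under other names were examined from a list. Of 17 assembly genes 16 were measured, and 0 were called between high and low potential over both cell types (median 0.04), within ESC (median 0.08) or within iPSC (median -0.03). Between iPSC and ESC 0 rose, beside 0.916% of all probe sets, and 2 fell, Nubpl and Tmem70, beside 1.96%. Nubpl, which delivers iron-sulphur clusters to complex I, stood at 5.42, 5.30 and 5.45 in iPSC high and 5.18, 5.24 and 5.18 in iPSC low, against 5.81, 5.93 and 5.72 in ESC high and 5.64, 5.94 and 5.64 in ESC low. All iPSC arrays lay below all ESC arrays, and the difference was -0.48 ± 0.07 (SE; adjusted p = 0.00442, limma).

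Tmem70, known chiefly for the assembly of ATP synthase and also for that of complex I, stood at 5.04, 4.97 and 5.13 in iPSC high and 4.84, 5.05 and 4.93 in iPSC low, against 5.59, 5.36 and 5.49 in ESC high and 5.47, 5.52 and 5.34 in ESC low. These groups did not overlap either, and the difference was -0.47 ± 0.07 (SE; adjusted p = 0.0039, limma). A separation of all 6 iPSC from all 6 ESC arrays occurred in 2.75% of all probe sets and in 0 of 44 Nduf genes. Without the arrays numbered 4 the differences were -0.54 for Nubpl and -0.51 for Tmem70, and neither passed (adjusted p = 0.0918 and 0.0958, limma). The 3 supercomplex genes Cox7a2l, Higd1a and Higd2a were not called in any comparison. Of the 7 complex I genes of mitochondrial DNA that were listed, 0 were found by symbol among the probe sets.

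For scale, 43 entries of complexes II to V, picked by symbol, had a median high-low difference of 0.08 over both cell types, with 28 above 0 and 0 called, and a median iPSC minus ESC difference of 0.04 with 0 called. They include the pseudogene entries Uqcrh-ps1 and Atp5c1-ps and the supercomplex gene Cox7a2l, and the other 40 had medians of 0.08 and 0.04. No test was made between these and the Nduf genes.

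The start regions of the members were examined for motifs of factors known from respiratory chain genes. The sequences came from RefSeq (GRCm38.p6), 250 bases before to 50 after a start, and 38 of 44 members had one. The YY1 motif AAGATGGC was found on either strand in 8 members, Ndufa3, Ndufa9, Ndufaf8, Ndufb8, Ndufc1, Ndufs4, Ndufs6 and Ndufs7, or 21.1%, beside 3.19% of the 27025 genes with such a sequence. In all 8 the match began 11 to 39 bases after the start, whereas 39.9% of all sequences with that motif had their first match after the start. The motif contains ATG, the letters of a start codon. Whether these matches are starts of translation, and the part of that in their share and position, was not tested. The NRF1 motif (GCGCA, any base, then GCGC, on either strand) was found in 7 members or 18.4%, beside 5.19% of all genes, and the ETS motif CCGGAAGT in 1 member, beside 4.31%. Of these, Ndufs6 held both YY1 and NRF1 motifs, and Ndufa3 had the largest positive t of the members with the YY1 motif. Both are printed with motifs in capitals, which do not overlap each other. The Ndufa3 sequence is chr7:3617123-3617422 on the plus strand, and that of Ndufs6 is chr13:73328433-73328732 on the minus strand.
Ndufa3: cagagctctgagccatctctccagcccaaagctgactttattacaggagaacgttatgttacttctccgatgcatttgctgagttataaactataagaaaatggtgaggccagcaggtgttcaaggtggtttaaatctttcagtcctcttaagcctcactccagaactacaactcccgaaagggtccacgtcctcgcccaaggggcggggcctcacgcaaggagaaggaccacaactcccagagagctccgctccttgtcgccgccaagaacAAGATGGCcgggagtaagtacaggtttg
Ndufs6: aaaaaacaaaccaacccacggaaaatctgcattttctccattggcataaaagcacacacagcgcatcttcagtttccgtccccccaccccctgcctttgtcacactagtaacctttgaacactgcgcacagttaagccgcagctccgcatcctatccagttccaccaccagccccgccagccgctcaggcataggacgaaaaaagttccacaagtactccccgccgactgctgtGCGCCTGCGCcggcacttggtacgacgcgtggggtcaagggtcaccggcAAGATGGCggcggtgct
The median high-low difference over both cell types was 0.09 for members with the YY1 motif and 0.06 for members without it, and -0.0011 with the NRF1 motif and 0.08 without it. A match describes letters only, and binding was not measured. G and C made up a median of 59.5% of the members' start regions, taking the highest sequence per gene, beside 53.3% over all 27025 genes. The part of this in the motif shares was not tested.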

How the data were processed

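RNA of TMRM-sorted ESC and iPSC was hybridised to Affymetrix arrays, 12 in all. The authors deposited log2 values per probe set, made with RMA, affy 1.36.1 and R 2.15.1 per the submitters' processing notes. RMA quantile-normalizes arrays together, so a shift shared by most genes would not be seen. No source used here gives the chip definition, and the files give no depth or detection calls, and the number of arrays limits precision. Of 25206 probe sets 23185 had 1 symbol in the platform annotation, 0 several and 2021 none, and symbols of 44 of 44 members matched a GRCm38.p6 gene table by gene number. That table also lists pseudogene copies of Ndufa11, Ndufa12, Ndufab1 and Ndufs6, whose signal may be shared, and Ndufs5-ps is itself one.

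From these values, limma 3.58.1 (R 4.3.3) was fitted with 1 mean per group over all 12 arrays, without a block, and Benjamini-Hochberg adjustment over all probe sets. High was compared with low within ESC, within iPSC and on average, the iPSC effect with the ESC effect, and iPSC with ESC on average (5 comparisons). Intervals are 95% and not adjusted. The fit was tested on simulated data with known differences in each comparison. The simulated noise was independent between arrays, so a spread shared by same-numbered arrays was not covered. Named members were those with the largest moderated t (4 each way for the average, 3 for iPSC minus ESC, 2 for the interaction), core subunits and called genes of the lists. Members and lists were chosen with earlier results of these data known. Residuals of same-numbered high and low arrays correlated at 0.107 to 0.341 over 6 pairs, so the numbers were taken to pair the fractions, an inference from the data. Across cell types they correlated at -0.0948 to 0.131 and were not taken as pairs. Alternatives were the replicate block (within cell types for high against low, and over all arrays for iPSC against ESC, which uses the pairing not taken here), median centring, a minimum mean of 4, a trended robust variance, single cell types and leaving arrays out. Figures were drawn with matplotlib 3.10.9.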

Additional observations from a re-analysis of the deposited data

How the results depend on the processing

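Of 174 counts of called members under the alternatives, 172 were 0. The exceptions were 1 member called lower over both cell types, Ndufa12, with the trended robust variance and without ESC high replicate 4 (leaving out single arrays gave 0 to 1). The cause was not tested. The replicate block gave 0 called members in all 5 comparisons, so it changed no call of a member. Every number is present in every group, so the block leaves the median differences (0.0545 over both cell types) unchanged by design. For iPSC against ESC that block ran over all arrays and gave 778 calls over all probe sets. Residuals over all probe sets did not bear out this pairing across cell types, although array 4 had the highest member median in all 4 groups. Over all alternatives the median member difference was 0.0148 to 0.0849 over both cell types, 0.0144 to 0.0979 in ESC, -0.00798 (median centring) to 0.0678 in iPSC, and -0.0252 to 0.0282 between iPSC and ESC. For the difference of the differences it was -0.105 (without ESC low replicate 4) to 0.0218 (without iPSC low replicate 4), around -0.0365, so its sign rests on single arrays. None of the 337 alternative values of the named genes changed sign. These genes were picked for a large t or a call in the same data, so their signs were unlikely to change. The replicate block, the minimum mean and the trended robust variance leave each difference as it was, so those values could not change sign. Calls over all probe sets depended more on the arrays used, with 631 over both cell types against 106 without the arrays numbered 4, where fewer samples enter the fit, and 724 against 33 between iPSC and ESC. In ESC the counts were 90, 177 with the replicate block, 39 in the 6 ESC arrays alone and 0 without the arrays numbered 4, and in iPSC 138, 236 with the replicate block and 0 without the arrays numbered 4. Leaving out single arrays gave 19 (without ESC low replicate 2 or ESC high replicate 2) to 111 in ESC, 1 (without iPSC high replicate 4) to 208 (without iPSC low replicate 2) in iPSC, 380 (without ESC high replicate 3) to 695 over both, and 394 (without iPSC high replicate 4) to 680 between iPSC and ESC. The difference of the differences had 0 calls, and 1 with the replicate block. Without detection calls, the signal of Ndufb3 over background is unknown.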
